A study of Mus musculus with 11 samples.

Results

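The N1ICD tumours and the constitutive MYC/Otx2 tumours are mouse medulloblastomas, cancers of the cerebellum, and were compared across all genes measured. The comparison used the 3 libraries whose titles give MYC, Gfi1 and N1ICD in Math1-positive cells and the 3 libraries whose titles give MYC and Otx2, so 6 of the 11 libraries of the series. The other 5 libraries, from constitutive MYC/Gfi1 tumours and from MYC/Gfi1 tumours of S100b-positive cells, entered the statistical fit to estimate the spread between libraries. RNA from frozen cerebellar tumours of strain CD1 was measured by 3′ mRNA sequencing, which counts reads near the end of each transcript.

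All 6 tumours carried MYC. The N1ICD tumours added Gfi1, a zinc finger repressor, and N1ICD, the intracellular domain of the NOTCH1 receptor, with expression limited to Math1-positive cells. Math1, the product of Atoh1, marks the progenitors of cerebellar granule neurons. The MYC/Otx2 tumours added Otx2, a homeodomain factor, and their expression is labelled as constitutive, that is, not limited to a cell type. The series describes MYC/Otx2 as an earlier mouse model of Group 3 medulloblastoma, against which the N1ICD tumours were to be compared. The groups therefore differed in the oncogenes beside MYC and in the cells of origin at the same time, and these cannot be told apart. Age, sex, the vectors and the number of animals per library are not stated in the labels. P-values accordingly rest on the spread between libraries, which may be partly technical. The libraries of each group were numbered as replicates, and in each group 1 library held transcripts of the Y-linked gene Ddx3y and the other 2 held 0 or 1 count, so each group held at least 2 animals.

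When a Notch ligand such as Jagged1 binds its receptor, the intracellular domain is cut free, enters the nucleus and joins the DNA-binding protein RBPJ and a Mastermind co-activator. This complex turns on repressors of the Hes and Hey families, which hold neural cells back from differentiation. OTX2 and its relative CRX bind similar DNA and drive photoreceptor genes in the retina, and a photoreceptor programme that includes CRX is a known mark of human Group 3 medulloblastoma.

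The DNA motifs of these factors were looked up in promoter windows from 250 bases before to 50 bases after each gene's start (RefSeq, build GRCm38.p6). A match is a description of letters, not a site shown to be bound. The RBPJ core, TGGGAA read on either strand, lay in 25.6% of all 32851 windows. Of the 12 Notch target genes listed here, 7 had a window and 4 of these held the core (57.1% of their windows), namely Hey2, Hes5, Fabp7 and Hes7, of which Hes7 was not called. The core lay in 24.1% of the windows of all genes called higher in the N1ICD tumours, 22.03% of those called lower and 23.2% of those tested. Hey2 and Hes5 are shown with the core in capitals because their transcripts were higher in the N1ICD tumours. The stretches lie at chr10:30842964-30843017 (minus strand), chr4:154960673-154960723 (plus strand) and chr4:154960814-154960867 (plus strand), and the cores begin 207, 226 and 82 bases before the start. Hey2 held a second core, not shown, that begins 3 bases before the start.
Hey2: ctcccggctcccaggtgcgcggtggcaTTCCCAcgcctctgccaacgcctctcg
Hes5, distal: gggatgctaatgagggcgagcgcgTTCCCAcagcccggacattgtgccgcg
Hes5, proximal: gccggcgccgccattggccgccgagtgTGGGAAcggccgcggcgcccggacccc

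The OTX and CRX core, TAATCC on either strand, lay in 7.06% of all windows and in 39.3% of the 28 windows found for 27 of 40 photoreceptor genes. Of the 11 photoreceptor genes called lower in the N1ICD tumours, 7 had a window and 5 of these held the core (Abca4, Gnat2, Guca1a, Rbp3 and Sag). Crx itself held it too. Over all genes called higher or lower in the N1ICD tumours the shares of windows with this core were 6.05% and 6.16%, beside 5.59% for the genes tested. The stretches below, with the core in capitals, are shown for the factor itself, the arrestin, a calcium sensor and a retinoid carrier, whose transcripts were all lower in the N1ICD tumours. They lie at chr7:15880023-15880076 (minus strand), chr1:87803566-87803619 (plus), chr17:47400637-47400690 (minus) and chr14:33953907-33953960 (plus), and their cores begin 94, 87, 57 and 69 bases before the start. Crx held a second core, not shown, that begins 21 bases before the start.
Crx: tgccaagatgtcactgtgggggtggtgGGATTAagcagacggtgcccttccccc
Sag: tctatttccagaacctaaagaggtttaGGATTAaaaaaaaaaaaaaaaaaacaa
Guca1a: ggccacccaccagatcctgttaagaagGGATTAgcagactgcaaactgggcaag
Rbp3: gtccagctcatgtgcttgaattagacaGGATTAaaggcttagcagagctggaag

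Across all genes, 15228 passed the low-count filter and edgeR called 3315 of them (21.8%) at an adjusted p of 0.05 or less. Of these, 1829 (12.0% of the genes tested) were higher and 1486 (9.76%) lower in the N1ICD tumours, and 1089 and 537 of them by at least 4-fold. The median log2 change over all tested genes was 0.14. An unadjusted p under 0.05 was reached by 5665 genes, and in 6323 (41.5%) every library of 1 group lay above every library of the other. These shares are the background against which the lists below were read. The counts depended on the number of MYC/Otx2 libraries, with 1654, 1864 and 1712 genes called without replicates 1, 2 and 3 and 956 lower without N1ICD replicate 2.

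**Figure D1:**
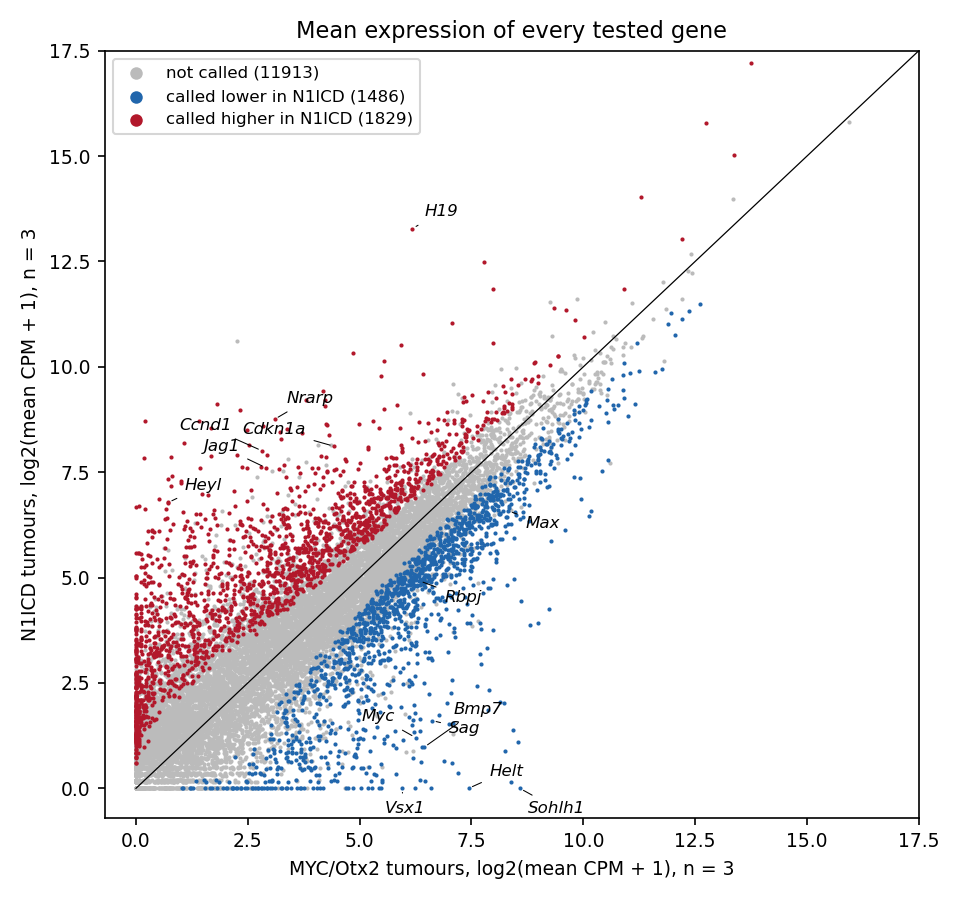
Mean expression of the 15228 tested genes, as log2 of mean CPM (counts per 1000000) plus 1, in the MYC/Otx2 tumours (horizontal axis, n = 3) and the N1ICD tumours (vertical axis, n = 3). Red points are the 1829 genes called higher and blue points the 1486 called lower in the N1ICD tumours by edgeR, and the line marks equal levels. Vsx1, Helt and Sohlh1 lie on the floor of the plot, with 0 counts in the N1ICD libraries.

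The N1ICD libraries held 2683425, 3376389 and 2584768 counts and the MYC/Otx2 libraries 6967686, 7244921 and 8334356, so that 1 count was worth 0.349 to 0.429 CPM in the former and 0.116 to 0.141 CPM in the latter. Reads of mitochondrially encoded genes made up 25.6% ± 2.20 of counts in the N1ICD and 5.41% ± 0.297 in the MYC/Otx2 tumours (SD, n = 3 each), a difference of 20.2 percentage points without overlap (exact two-sided permutation p = 0.1, the smallest possible with 3 against 3). The N1ICD libraries were also less alike, with Spearman correlations across genes of 0.839 to 0.910 against 0.942 to 0.946 within the MYC/Otx2 group. The groups belong to library sets with different naming styles in the labels. A difference between these sets cannot be told apart from the tumour models.

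The oncogenes themselves came first. Besides the genes that a fixed naming rule gave, others were chosen after their values were seen: Abca4, Acta2, Bbc3, Cdkn2a, Dll1, Dll3, Dtx1, Gfap, Guca1a, Hes5, Hes7, Hey1, Mdm2, Myh11, Notch2, Nrl, Pde6c, Pde6g, Rbp3, Slc1a3, Sox9, Tubb3 and the lymphocyte markers. Myc (chromosome 15, 61985391 to 61990374, mm10), the growth-promoting factor, was at 0.429, 1.05 and 2.43 CPM in N1ICD replicates 1, 2 and 3 and at 128, 31.5 and 66.4 CPM in the MYC/Otx2 replicates. The libraries did not overlap, so that the N1ICD tumours had less of it, with a fitted log2 change of -5.83 ± 0.77 (SE) at an edgeR adjusted p of 0.00159. Gfi1 was at 4.72, 0.697 and 4.87 CPM against 0.283, 0 and 0.231 CPM, or 4.21 ± 1.16 log2 higher (edgeR adjusted p = 0.0289). Those levels rest on at most 12 counts in a library, and the call was lost without N1ICD replicate 1 or 3 or any 1 MYC/Otx2 library. Otx2 was at 13.7, 0 and 0.812 CPM against 13.7, 42.5 and 97.0 CPM. N1ICD replicate 1 had the same Otx2 level as MYC/Otx2 replicate 1, and the difference did not pass (-3.42 log2, edgeR adjusted p = 0.182). Notch1 had 11 counts in the N1ICD group and 0 in the MYC/Otx2 group and missed the threshold (edgeR adjusted p = 0.0514), which it passed by DESeq2 and limma-voom (adjusted p = 0.0269 and 0.0407). Atoh1 had 0 counts in all 6 libraries. The 3′ ends of the transgenes are not stated. Reads of a transgene whose end differs from that of the mouse gene are not counted here, so these levels do not check the labels.

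Notch target genes were higher in the N1ICD tumours. Of the 12 targets, 8 were called higher and 0 lower, with a median log2 change of 4.65, beside 12.0% called higher and a median of 0.14 among all tested genes. The targets with the steadiest levels were the repressors Heyl and Hey2, the Notch feedback regulator Nrarp and the cyclin D1 gene Ccnd1. The calls of these 4 genes and of Notch3 held without each of the 6 libraries in turn. The count was 5 without MYC/Otx2 replicate 1 or 3 and 6 without MYC/Otx2 replicate 2 or N1ICD replicate 1, and the median was 3.18 without N1ICD replicate 1.

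Heyl (chromosome 4, 123233556 to 123249875), a Hey family repressor, was at 82.7, 145 and 99.0 CPM in the N1ICD libraries and at 0.283, 0.498 and 1.16 CPM in the MYC/Otx2 libraries. Every N1ICD library lay far above every MYC/Otx2 library, with a fitted log2 change of 7.34 ± 0.69 (SE) at an edgeR adjusted p of 0.000538. Hey2, its close relative and the gene whose promoter stretch is shown above, was at 105, 73.6 and 70.2 CPM against 0, 0.747 and 0.924 CPM. The N1ICD levels of Hey2 lay close together, and the log2 change was 7.14 ± 1.02 (edgeR adjusted p = 0.00213). Hey1 was at 97.3, 54.0 and 87.6 CPM against 13.8, 17.2 and 8.67 CPM, a smaller difference of 2.59 ± 0.65 log2 (edgeR adjusted p = 0.0212). Its MYC/Otx2 level was above those of Heyl and Hey2 in the same libraries, and its call was kept in 3 of the 6 fits that left out 1 library (highest edgeR adjusted p = 0.0765, without MYC/Otx2 replicate 3).

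Nrarp (chromosome 2, 25180758 to 25183339), a small ankyrin repeat protein that is induced by Notch and dampens it, was at 354, 463 and 477 CPM against 6.22, 11.8 and 4.62 CPM. Its N1ICD libraries were the closest to each other among the called targets, and the log2 change was 5.83 ± 0.78 (edgeR adjusted p = 0.0017). Ccnd1 (chromosome 7, 144929931 to 144939925), which drives entry into the cell cycle, was at 293, 163 and 313 CPM against 2.68, 6.85 and 8.67 CPM. No library of Ccnd1 crossed between the groups, and it was 5.39 ± 0.58 log2 higher (edgeR adjusted p = 0.000725).

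Other targets varied between the N1ICD libraries. Hes5, a repressor of neural progenitors, was at 1399, 3.14 and 385 CPM in the N1ICD libraries against 14.7, 15.8 and 22.2 CPM. N1ICD replicate 2 was thus below every MYC/Otx2 library, while replicates 1 and 3 were far above them. The Hes5 change of 5.08 ± 1.41 log2 passed (edgeR adjusted p = 0.0309) but was kept in 2 of the 6 fits that left out 1 library (highest edgeR adjusted p = 0.1, without MYC/Otx2 replicate 1). Fabp7, a fatty acid binding protein of radial glia, had the same order, with 1058, 4.18 and 86.8 CPM against 3.39, 13.3 and 1.62 CPM (5.97 ± 1.77 log2, edgeR adjusted p = 0.0383). Its call was lost without N1ICD replicate 1 (edgeR adjusted p = 0.156) or any 1 MYC/Otx2 library. Hes1, the Hes repressor found in many tissues, was at 18, 17.1 and 27.2 CPM against 6.22, 15.1 and 20.5 CPM. Its libraries overlapped and it did not pass (0.57 log2, edgeR adjusted p = 0.474). The other targets that did not pass were Dtx4, Dtx1 and Hes7, at log2 changes of 0.95, 2.62 and -1.73.

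**Figure D2:**
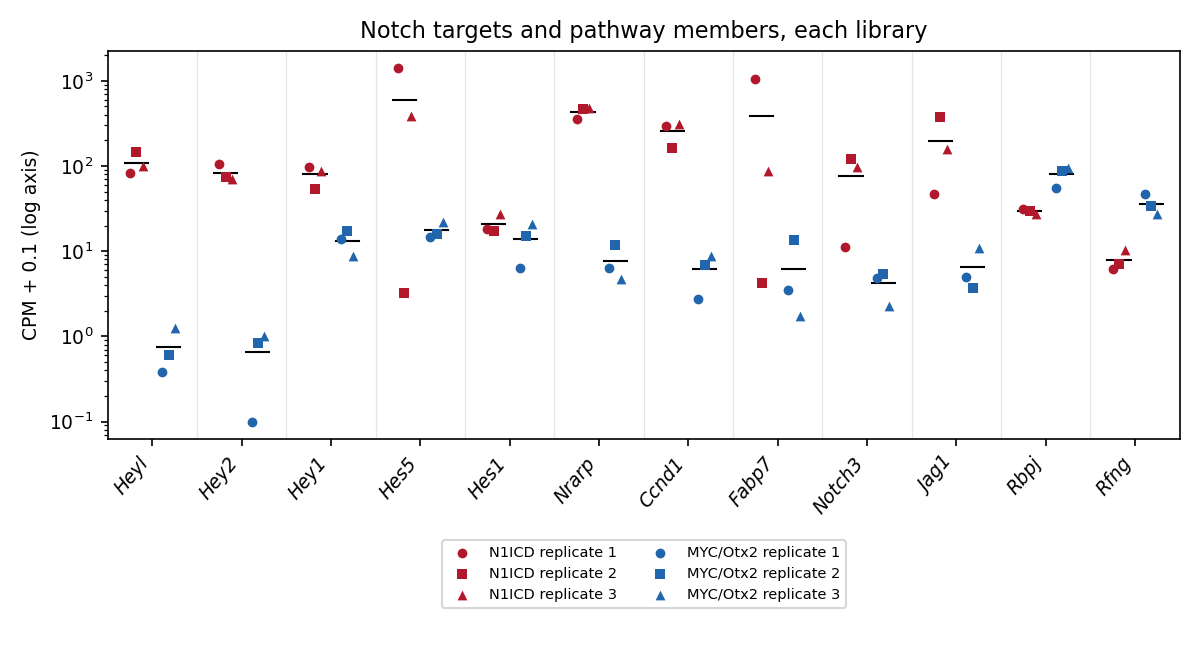
CPM plus 0.1 on a log axis of Notch targets and pathway members in each of the 6 libraries (red, N1ICD; blue, MYC/Otx2; symbols, replicates; black lines, means plus 0.1). Heyl, Hey2, Nrarp and Ccnd1 were separated in every library, whereas for Hes5 and Fabp7 the N1ICD replicate 2 symbol fell among the MYC/Otx2 libraries or below them.

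Among 28 receptors, ligands and machinery genes of the pathway, 3 were higher and 2 lower, shares near those of all genes. The count of higher genes was 1 without MYC/Otx2 replicate 1 or 3. The ligand gene Jag1 was at 47.2, 375 and 160 CPM against 4.94, 3.61 and 10.9 CPM, a rise of 4.90 ± 0.74 log2 without overlap (edgeR adjusted p = 0.00276). The receptor gene Notch3 was at 11.1, 122 and 97.8 CPM against 4.8, 5.36 and 2.2 CPM (4.22 ± 0.81 log2, edgeR adjusted p = 0.00736). In both genes N1ICD replicate 1 was the lowest of its group. Notch2, by contrast, was at 12.0, 44.6 and 19.9 CPM against 29.2, 22 and 23.5 CPM and did not pass (0.04 log2, edgeR adjusted p = 0.968).

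Rbpj, the DNA-binding partner of N1ICD, was lower, at 31.3, 29.3 and 27.6 CPM against 54.8, 87.7 and 95.9 CPM. Its N1ICD libraries nearly coincided, and the log2 change was -1.43 ± 0.28 (edgeR adjusted p = 0.00778). Rfng, a Fringe glycosyltransferase that modifies Notch receptors, was at 6.0, 6.97 and 10.1 CPM against 46.6, 33.5 and 27.3 CPM (-2.21 ± 0.33 log2, edgeR adjusted p = 0.00253). Maml2, a Mastermind co-activator, was higher by 2.26 ± 0.52 log2 (edgeR adjusted p = 0.015), a call lost without MYC/Otx2 replicate 1 or 3 (edgeR adjusted p = 0.0574 without the latter). Delta ligand genes were sparse: Dll1 had 1 count in the N1ICD and 28 in the MYC/Otx2 libraries, and Dll3 had 23 and 238, neither passing.

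The Notch genes named are also active in vessel walls, where Notch3 and Heyl mark pericytes and smooth muscle. The summed CPM of 14 pericyte and smooth muscle genes was 373 in N1ICD replicate 1, 9148 in replicate 2 and 3431 in replicate 3, against 305 to 495 in the MYC/Otx2 libraries. The sum of N1ICD replicate 1 lay within the MYC/Otx2 range, but the smooth muscle gene Tagln (30.0 CPM against at most 0.462) and the pericyte gene Pdgfrb (26.6 CPM against at most 10.2) were above it in that library too. The part of vessel wall cells in the Notch gene differences was not tested. In tumour tissue measured in bulk, fewer cells of a type and less RNA per cell cannot be told apart.

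The retinal programme was lower in the N1ICD tumours. Of 40 photoreceptor genes, 21 passed the low-count filter, and 11 of these were called lower and 0 higher, beside 9.76% called lower among all genes. The median log2 change of the 21 was -4.04, or -3.68 with the 3 genes that had 0 counts in the N1ICD group set at their bound. The filter kept such genes mainly through the MYC/Otx2 libraries, so these counts describe the list only. The 21 genes summed to 25.2 to 39.0 CPM in the N1ICD and 253 to 500 CPM in the MYC/Otx2 libraries. Of the 19 retinal transcription factor genes, 14 passed the filter and 5 were lower (median -3.94, or -2.89 with 4 genes at their bound, and -2.18 without MYC/Otx2 replicate 3), and limma-voom called 2 of them lower.

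Among the transcription factors, Vsx1 (chromosome 2, 150680702 to 150689360), a homeodomain factor of retinal bipolar cells, had 0 counts in the 3 N1ICD libraries. In the MYC/Otx2 libraries it was at 55.0, 64.5 and 61.7 CPM, which made it at least 155-fold lower in the N1ICD tumours (edgeR adjusted p = 0.00174). Crx (chromosome 7, 15865947 to 15879968), the photoreceptor factor related to Otx2, was at 0, 0 and 0.406 CPM against 4.1, 9.72 and 7.63 CPM. It was low in both groups, but the libraries did not overlap (-5.61 ± 1.23 log2, edgeR adjusted p = 0.0143). Lhx4, a LIM homeodomain factor, was at 1.29, 0.697 and 0 CPM against 3.53, 19.7 and 26.7 CPM (-4.63 ± 0.98 log2, edgeR adjusted p = 0.0104). Neurod4, a proneural factor of the retina and brain, had 0 counts in the N1ICD group and 4.24, 26.3 and 53.4 CPM in the other, at least 75.6-fold lower (edgeR adjusted p = 0.0192). With limma-voom, Lhx4 and Neurod4 were not called (adjusted p = 0.0788 and 0.0847), and with the replicate number as a block Neurod4 was not called (edgeR adjusted p = 0.0542). Vsx1 varied little between the MYC/Otx2 libraries, while Crx, Lhx4 and Neurod4 were lowest in MYC/Otx2 replicate 1. Thrb, the thyroid hormone receptor beta of cones, was lower by 3.26 on the log2 scale (edgeR adjusted p = 0.046), and this call was kept in 1 of the 6 fits that left out 1 library (highest edgeR adjusted p = 0.166, without MYC/Otx2 replicate 3). Neurod1 was at 6.43, 0.349 and 0.406 CPM against 34.9, 87.7 and 68.5 CPM and missed the threshold (edgeR adjusted p = 0.0503), which it passed by DESeq2 (adjusted p = 0.00133), with the compared groups fitted alone (edgeR adjusted p = 0.0169) and at equal depth (edgeR adjusted p = 0.0406).

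Genes of the light response followed in the same direction. Sag (chromosome 1, 87803680 to 87845158), an arrestin of photoreceptors, was at 2.14, 2.79 and 1.22 CPM in the N1ICD libraries against 102, 30.0 and 160 CPM. The lowest MYC/Otx2 library was still above every N1ICD library, and the log2 change was -5.55 ± 0.69 (edgeR adjusted p = 0.00121). Subunits of the G protein transducin, which relays the light signal inside photoreceptors, were lower together. The gamma subunit gene Gngt2 was at 3.0, 6.97 and 3.65 CPM against 75.9, 66.5 and 71.2 CPM (-3.95 ± 0.47 log2, edgeR adjusted p = 0.00106). The beta subunit gene Gnb3 was at 0.429, 0.349 and 2.03 CPM against 34.3, 56.7 and 75.8 CPM (-5.89 ± 0.94 log2, edgeR adjusted p = 0.00336). Gnat2, the alpha subunit of cones, was at 1.29, 1.05 and 0.406 CPM against 9.75, 9.47 and 16.4 CPM (-3.68 ± 0.69 log2, edgeR adjusted p = 0.00639). Gngt2 was the steadiest of the subunit genes across the MYC/Otx2 libraries, and the calls of Sag and of the 3 subunit genes held without each of the 6 libraries.

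Subunits of the cyclic GMP phosphodiesterase were lower as well. Pde6h, the inhibitory subunit of cones, was at 0.857, 0 and 0 CPM against 12.6, 10.2 and 80.5 CPM (-6.94 ± 1.41 log2, edgeR adjusted p = 0.00896). MYC/Otx2 replicate 3 held most of the Pde6h reads, and limma-voom did not call Pde6h (adjusted p = 0.0747). Pde6g, Pde6c, the calcium sensor gene Guca1a, the retinoid transport genes Abca4 and Rbp3, and the matrix gene Impg2 were called lower too. Their calls, at edgeR adjusted p-values from 0.022 (Pde6g) to 0.0442 (Impg2), were each lost without at least 1 of the compared libraries. The count of photoreceptor genes called lower was therefore 7, 7 and 6 without MYC/Otx2 replicates 1, 2 and 3, and 8, 5 and 6 without N1ICD replicates 1, 2 and 3. Nrl, which directs rod fate, had 0 counts in the N1ICD and 12 in the MYC/Otx2 libraries and was not tested. Other retinal genes showed little change. The photoreceptor genes Gucy2e and Rom1 did not pass, at -0.82 and -0.44 log2 (edgeR adjusted p = 0.66 and 0.666). Mef2d of the transcription factor list did not pass either, at 0.02 log2 (edgeR adjusted p = 0.978).

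**Figure D3:**
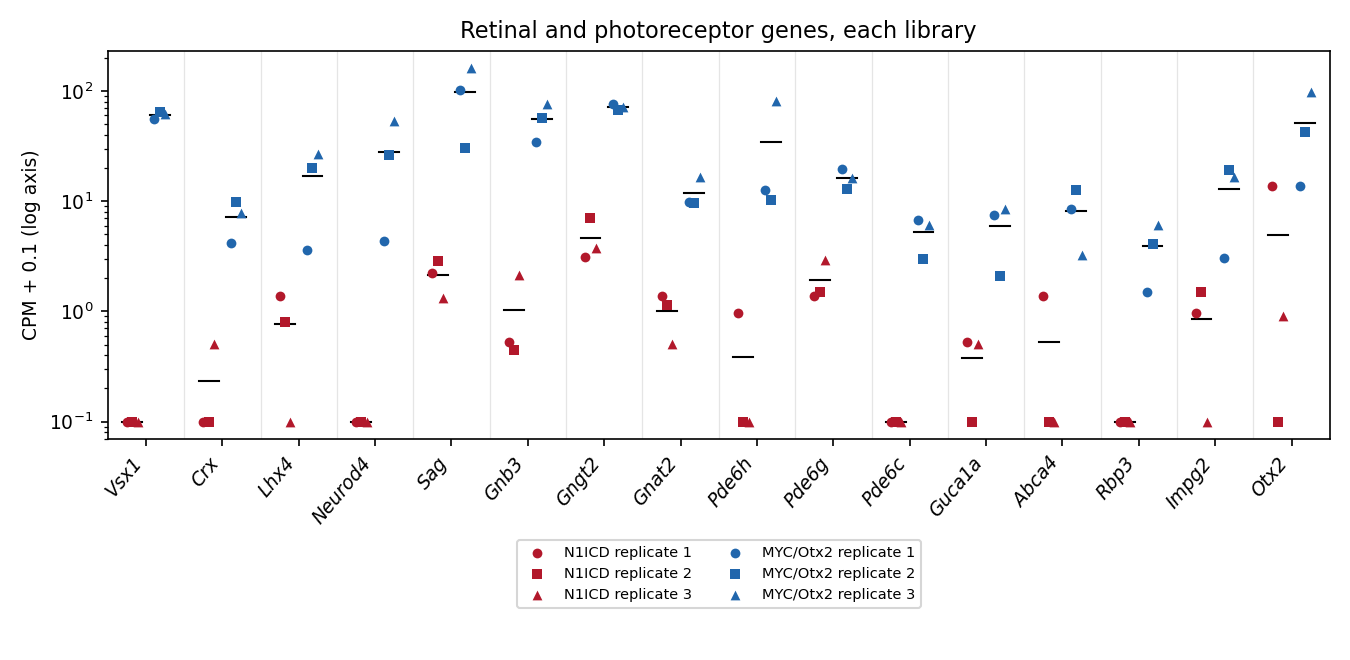
CPM plus 0.1 on a log axis of retinal transcription factor and photoreceptor genes, and of Otx2, in each library (red, N1ICD; blue, MYC/Otx2; symbols, replicates; black lines, means plus 0.1). Symbols on the line at 0.1 had 0 counts. Apart from Otx2, where N1ICD replicate 1 and MYC/Otx2 replicate 1 were both at 13.7 CPM, no gene shown had overlapping groups. The genes other than Otx2 were chosen among those called lower, so this separation follows in part from the choice. Every MYC/Otx2 library was above every N1ICD library in 16 of the 21 tested photoreceptor genes and 8 of the 14 tested retinal transcription factor genes.

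Markers of human Group 3 and Group 4 medulloblastoma gave 5 genes lower and 0 higher of 13 tested (median -2.18). That is 38.5% called lower, beside 9.76% among all tested genes. As with the photoreceptor genes, the low-count filter can keep genes through the MYC/Otx2 libraries alone, so the count describes the list only. Crx and Impg2 belong to this list as well. Unc5d, a netrin receptor, was at 0, 0 and 0.812 CPM against 8.62, 4.61 and 10.6 CPM (-4.83 ± 1.07 log2, edgeR adjusted p = 0.0128). Npr3, the natriuretic peptide clearance receptor, and Gabra5, a GABA receptor subunit, were called at edgeR adjusted p-values of 0.0432 and 0.0435 and kept the call in 1 and in 0 of the 6 fits that left out 1 library. In each of those fits, 2 or 3 genes of the list were lower.

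The 15 largest falls held several genes with 0 counts in the N1ICD group. Sohlh1 (chromosome 2, 25842995 to 25847248), a basic helix-loop-helix factor of germ cells, was at 361, 621 and 164 CPM in the MYC/Otx2 libraries and at 0 in the N1ICD libraries, at least 964-fold lower (edgeR adjusted p = 0.0078). Outside the MYC/Otx2 group Sohlh1 was found in 1 library of the series, at 1.49 CPM in S100b-cell replicate 3. Its promoter window held the E-box CACGTG, the core to which MYC and MAX bind, 3 times, at chr2:25847420-25847494 (minus strand). This core lay at least once in 7.15% of all windows and 9.61% of those of the genes tested. The shares were 13.2% for genes called lower and 8.17% for genes called higher. The stretch is shown for its repeated core, in capitals.
Sohlh1: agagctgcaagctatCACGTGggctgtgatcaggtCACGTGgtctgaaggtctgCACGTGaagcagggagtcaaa

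Helt, a Hes-related factor of GABAergic neurons in the midbrain, was at 178, 154 and 185 CPM against 0 in the N1ICD libraries, at least 440-fold lower (edgeR adjusted p = 0.0103). Camk1g, a calcium-dependent kinase, was at 47.2, 82.0 and 92.9 CPM against 0, at least 193-fold lower (edgeR adjusted p = 0.000848). Ptger3, a prostaglandin E2 receptor, was at 51.7, 33.9 and 40.7 CPM against 0, at least 106-fold lower (edgeR adjusted p = 0.000385). Helt varied least between the MYC/Otx2 libraries, and none of these 3 genes had a read in an N1ICD library. Ptger3 was also found in the other tumour groups, at 18.9 to 36.2 CPM in the S100b-cell and 5.08 to 6.06 CPM in the MYC/Gfi1 libraries. Grm6, the glutamate receptor of retinal bipolar cells, was at 4.1, 68.8 and 56.9 CPM against 0, at least 115-fold lower (edgeR adjusted p = 0.0128). Its MYC/Otx2 replicate 1 was the lowest of the group. Rhox5, an X-linked homeobox gene of the testis, was at 729, 53.8 and 221 CPM against 0, 0.349 and 0 CPM (-11.17 ± 1.5 log2, edgeR adjusted p = 0.0017). With limma-voom, Grm6 and Rhox5 were not called (adjusted p = 0.108 and 0.066).

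Among the 15 largest rises, Cox4i2, Gpr20 and Slfn9 were kept without each of the 6 libraries. Olfr558 and Frk passed the low-count filter in 4 of those 6 fits and were kept in these 4. Cox4i2, an isoform of a respiratory chain subunit found in pericytes, was at 38.2, 5.93 and 22.3 CPM against 0 in the MYC/Otx2 libraries, at least 166-fold higher (edgeR adjusted p = 0.0084). Olfr558, an olfactory receptor gene also expressed in vascular smooth muscle, was at 0.857, 577 and 108 CPM against 0.141, 0 and 0.231 CPM (10.66 ± 2.11 log2, edgeR adjusted p = 0.01). Olfr558 was low in N1ICD replicate 1, where Cox4i2 was highest, and limma-voom did not call Olfr558 (adjusted p = 0.237). Frk, a Src-related kinase, and Gpr20, an orphan receptor, were at least 152-fold and 137-fold higher, and both were also lowest in N1ICD replicate 1. Slfn9, a Schlafen family gene, was at 6.86, 28.9 and 7.3 CPM against 0, at least 121-fold higher (edgeR adjusted p = 0.0017).

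Regulators of the cell cycle did not change one way. Beside Ccnd1, the cyclin-dependent kinase inhibitor gene Cdkn1a (p21) was higher, at 244, 333 and 252 CPM against 9.75, 24 and 27.9 CPM (3.75 ± 0.49 log2, edgeR adjusted p = 0.00154). Rb1, the retinoblastoma protein that restrains entry into S phase, was at 41.6, 26.1 and 47.5 CPM against 4.38, 6.98 and 8.55 CPM (2.53 ± 0.46 log2, edgeR adjusted p = 0.00558). Ccnd1, Cdkn1a and Rb1 were each higher in every N1ICD library. Cdkn2d, an inhibitor of CDK4 and CDK6, was lower at 7.29, 6.97 and 6.49 CPM against 22, 20.4 and 19.0 CPM (-1.56 ± 0.28 log2, edgeR adjusted p = 0.00538). Cdkn1c, another inhibitor, was higher by 3.67 ± 0.90 log2 (edgeR adjusted p = 0.0196), but N1ICD replicate 2 at 12.9 CPM overlapped the MYC/Otx2 libraries, and the call was kept in 2 of the 6 fits that left out 1 library (highest edgeR adjusted p = 0.0722, without MYC/Otx2 replicate 1). In all, 4 of 13 genes of this list were higher and 1 was lower. The kinase gene Cdk4 was at 204 to 312 CPM and 228 to 295 CPM and did not pass.

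Of 24 DNA replication genes, 2 were higher and 5 lower (median -0.29, with -0.02 without N1ICD replicate 1 and -0.77 without N1ICD replicate 3). That is 29.2% called either way, beside 21.8% among all tested genes. Ccne2, a cyclin of the start of replication, was higher by 1.55 ± 0.30 log2 at 40.3, 53 and 54.0 CPM against 23.6, 13.2 and 13.6 CPM (edgeR adjusted p = 0.00754). Cdt1, a licensing factor that is degraded as replication begins, was lower by 2.07 on the log2 scale, at 61.3, 75.6 and 176 CPM against 446, 409 and 463 CPM (edgeR adjusted p = 0.00684). Those 2 calls held without each library, whereas the lower calls of E2f1, Mcm5 and Mcm6 did not, and the count of lower genes was 2 without MYC/Otx2 replicate 2 and 1 without each other compared library except N1ICD replicate 3.

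Of 21 mitosis genes, 2 were higher and 2 lower (median -0.47), and over the fits that left out 1 of the 6 libraries 1 or 2 were higher and 1 to 3 lower. That is 19.0% called either way, near the 21.8% among all tested genes. Mki67, the Ki-67 antigen of dividing cells, was higher at 239, 277 and 162 CPM against 51.0, 57.4 and 50.6 CPM (2.09 ± 0.34 log2, edgeR adjusted p = 0.00372). Birc5, the mitotic protein survivin, was lower at 352, 621 and 571 CPM against 2206, 1617 and 1157 CPM (-1.69 ± 0.30 log2, edgeR adjusted p = 0.00538). Mki67 and Birc5 thus pointed in opposite directions between the same libraries. Top2a, a topoisomerase of dividing cells, was at 621 to 842 CPM against 917 to 1079 CPM and missed the threshold (edgeR adjusted p = 0.202).

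Of the MYC partners and targets, some were called and most were not. Max (chromosome 12, 76937269 to 76962201), the obligate partner of MYC, was at 81.9, 92.0 and 110 CPM against 311, 314 and 335 CPM. Both groups were tight and far apart, and the log2 change was -1.76 ± 0.24 (edgeR adjusted p = 0.00187). In the list of MAX partners and relatives 2 of 11 genes were higher and 2 lower, or 36.4% called beside 21.8% of all tested genes. The others were Mlx and Mga, higher by 1.83 and 0.88 log2 (edgeR adjusted p = 0.0202 and 0.0362), and Mnt, a repressor that pairs with MAX, lower by 0.92 on the log2 scale (edgeR adjusted p = 0.0384). Of the fits that left out 1 of the 6 libraries, Mlx was called in 3, Mga in 1 and Mnt in 0. Of 30 nucleolar and other MYC target genes, 3 were higher and 5 lower (median -0.44, from -0.70 without N1ICD replicate 3 to -0.23 without N1ICD replicate 1). That is 26.7% called either way, near the 21.8% among all tested genes. Cad, which starts pyrimidine synthesis, was at 92.6, 97.6 and 117 CPM against 397, 248 and 318 CPM (-1.65 ± 0.22 log2, edgeR adjusted p = 0.00154). Fbl, the nucleolar methyltransferase fibrillarin, and Mybbp1a, a nucleolar regulator, were lower by 1.65 and by 1.01 on the log2 scale (edgeR adjusted p = 0.00578 and 0.00987). Ncl and Npm1, 2 abundant nucleolar proteins, did not pass, with Ncl at 1461 to 1807 CPM against 1488 to 1717 CPM. The count of lower genes was 9 without N1ICD replicate 3 and 3 without MYC/Otx2 replicate 1. The count of higher genes was 0 without MYC/Otx2 replicate 2 or 3 and 1 without MYC/Otx2 replicate 1 or N1ICD replicate 2 or 3.

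Proneural factors, which commit progenitors to become neurons, gave 4 lower genes and 1 higher of 12 (median -3.97, or -3.09 with 5 genes at their bound). That is 41.7% called either way, beside 21.8% among all tested genes. The median was -2.34 without MYC/Otx2 replicate 2 and -6.31 without N1ICD replicate 1, and the count of lower genes was 7 without MYC/Gfi1 replicate 2 and 1 with the replicate number as a block. Hes6, which promotes differentiation by opposing Hes1, was at 30.4, 16.7 and 30.8 CPM against 189, 200 and 309 CPM. No library overlapped, and the log2 change was -3.16 ± 0.32 (edgeR adjusted p = 0.000641). Insm1, a zinc finger factor of neuronal precursors, had 0 counts in the N1ICD group and was at least 66.4-fold lower (edgeR adjusted p = 0.0495), a call lost without any 1 library. Tcf4, an E protein partner of these factors, was higher, at 747, 239 and 208 CPM against 91.1, 161 and 118 CPM (1.69 ± 0.45 log2, edgeR adjusted p = 0.0268, a call lost without MYC/Otx2 replicate 1 or 3). Without MYC/Otx2 replicate 2 or N1ICD replicate 2, 2 genes of the list were lower.

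Neuronal genes gave 3 lower and 0 higher of 35 (median -1.48), and in 15 of the 35 the MYC/Otx2 libraries were all above the N1ICD libraries, as they were in 20.8% of all genes. The share called lower, 8.57%, was near the 9.76% among all tested genes. Mapt, the axonal protein tau, was at 9.0, 4.18 and 11 CPM against 238, 143 and 236 CPM (-4.68 ± 0.88 log2, edgeR adjusted p = 0.00677). It was the 1 neuronal gene whose call held without each library, and the list's count was 1 in all 6 such fits but that without N1ICD replicate 3, where it was 2. limma-voom called 0 neuronal genes lower (adjusted p = 0.0622 for Mapt), DESeq2 6, and edgeR 9 with the compared groups fitted alone. The neuronal tubulin gene Tubb3 was at 0, 3.14 and 3.65 CPM against 14.6, 46.0 and 61.5 CPM and missed the threshold (edgeR adjusted p = 0.0994). Of the mature granule cell and Purkinje cell genes, edgeR called 0 of 11 and 0 of 10, at medians of -3.14 and -2.12. Those medians were -1.96 and -0.88 without MYC/Otx2 replicate 2 and -4.94 and -3.31 without N1ICD replicate 1. An unadjusted p under 0.05 was reached by 2 and 3 of them, limma-voom called 0 in both lists, and DESeq2 called 2 genes lower in each and 1 Purkinje cell gene higher.

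Sonic hedgehog and granule cell progenitor genes gave 2 lower and 0 higher of 19. That is 10.5% called lower, near the 9.76% among all tested genes. The 2 genes are transducers of the pathway. Sufu, an inhibitor of GLI factors, was at 63.0, 23.0 and 26.4 CPM against 185, 140 and 208 CPM (-2.25 ± 0.37 log2, edgeR adjusted p = 0.00387). Gli2, an activator of the pathway's targets, was at 3.0, 0 and 0.812 CPM against 24.4, 31.9 and 37.7 CPM (-4.66 ± 0.98 log2, edgeR adjusted p = 0.0103). An inhibitor and an activator were thus both lower. Zic1, a marker of the granule lineage, was at 66.9, 7.67 and 9.33 CPM against 126, 229 and 32.5 CPM and missed the threshold (edgeR adjusted p = 0.326). Without N1ICD replicate 2, 4 genes of the list were lower.

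Neural progenitor genes gave 4 higher and 2 lower of 19 (median 1.87, and 0.69 without N1ICD replicate 1). The intermediate filament gene Vim was at 208, 304 and 694 CPM against 8.19, 22.5 and 23.3 CPM (4.48 ± 0.66 log2, edgeR adjusted p = 0.00253). Nes, the progenitor filament nestin, was at 176, 35.6 and 77.5 CPM against 0.565, 4.23 and 2.2 CPM (5.35 ± 0.96 log2, edgeR adjusted p = 0.00552). Both are also expressed in vessel cells and reactive glia. Sox1 and Sox3, related neural factors, were called in opposite directions. Sox1 was at 139, 0.697 and 35.3 CPM against 0.706, 2.86 and 0.116 CPM, and Sox3 was at 4.72, 0 and 0 CPM against 117, 123 and 2.2 CPM. Their libraries overlapped, and the calls (edgeR adjusted p = 0.03 and 0.034) were kept in 3 and in 2 of the 6 fits that left out 1 library. Without MYC/Otx2 replicates 1 or 3, 2 genes of the list were higher, and without MYC/Otx2 replicate 2 or N1ICD replicates 2 or 3, 0 were lower.

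BMP signalling showed a ligand and its targets apart. Bmp7 (chromosome 2, 172868012 to 172940321), a secreted ligand, was at 2.14, 0.349 and 0.406 CPM against 102, 79.8 and 75.8 CPM (-6.50 ± 0.81 log2, edgeR adjusted p = 0.00121). The inhibitor of differentiation gene Id1, a target of BMP and of other signals, was at 250, 19.9 and 129 CPM against 6.5, 5.85 and 2.43 CPM (4.76 ± 0.89 log2, edgeR adjusted p = 0.00679). Id3 was at 341, 92.7 and 111 CPM against 12.6, 26.5 and 15.6 CPM (3.31 ± 0.72 log2, edgeR adjusted p = 0.0121, and 0.0526 without MYC/Otx2 replicate 1). The ligand gene was lower and Id1 and Id3 were higher in every N1ICD library. Id2 missed the threshold (1.44 log2, edgeR adjusted p = 0.0622). Of the 14 genes of the list 4 were higher and 1 lower, with 1 higher without MYC/Otx2 replicate 1 and 2 without N1ICD replicate 1. Among Wnt genes, the secreted Dkk3 was higher at 273, 4.88 and 15.8 CPM against 0, 0.125 and 0.347 CPM (9.08 ± 1.72 log2, edgeR adjusted p = 0.007). Dkk3 was not called by limma-voom. Axin2, a feedback target of Wnt signalling, was lower by 2.43 on the log2 scale (edgeR adjusted p = 0.033), a call kept in 1 of the 6 fits that left out 1 library. In the Wnt list 1 gene was higher and 3 were lower of 11, and 0 or 1 were lower in each of those fits. Its median of 1.41 was -0.28 without N1ICD replicate 1 and 0.87 and 0.83 without MYC/Otx2 replicates 1 and 3.

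Targets of p53 gave 3 higher and 0 lower of 15 (median -0.03, from -0.12 without N1ICD replicate 3 to 0.23 without N1ICD replicate 2), and the count was 3 without each of the 6 libraries. Beside Cdkn1a they were Trp53inp1, a stress-induced regulator, at 96.0, 84.7 and 35.7 CPM against 5.79, 8.97 and 7.86 CPM (3.25 ± 0.52 log2, edgeR adjusted p = 0.00343), and Phlda3, an inhibitor of AKT, at 30.0, 41.8 and 30.8 CPM against 10.5, 7.35 and 5.66 CPM (2.13 ± 0.35 log2, edgeR adjusted p = 0.00387). The classical targets Mdm2 and Bbc3 did not pass, at log2 changes of -0.26 and -0.03. Immediate early genes, which respond within minutes to growth factors or to tissue handling, gave 7 higher and 0 lower of 13 (median 2.23, and 1.40 without N1ICD replicate 2). Egr2 had 0 counts in the MYC/Otx2 group and 8.15, 11.9 and 6.09 CPM in the other, at least 70.3-fold higher (edgeR adjusted p = 0.00267). Jun was at 62.2, 31.0 and 26.0 CPM against 4.38, 7.85 and 8.9 CPM (2.49 ± 0.52 log2, edgeR adjusted p = 0.0104). The count of these genes was 2 without MYC/Otx2 replicate 3 and 3 without MYC/Otx2 replicate 1 or N1ICD replicate 2, and the part of tissue handling in it was not tested.

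Glycolytic genes split. Eno1 was higher at 90.5, 81.2 and 87.2 CPM against 35.9, 21.2 and 37.0 CPM (1.46 ± 0.24 log2, edgeR adjusted p = 0.004). Pfkfb3, which activates phosphofructokinase, was lower at 29.6, 23.7 and 26.8 CPM against 71.5, 62.2 and 96.4 CPM (-1.52 ± 0.26 log2, edgeR adjusted p = 0.00461). Hk2 and Pkm were lower by 1.76 and by 0.74 on the log2 scale (edgeR adjusted p = 0.0172 and 0.0388). Hk2 lost its call without MYC/Otx2 replicate 3, and Pkm kept its call in 1 of the 6 fits that left out 1 library. In the list of 16 hypoxia and glycolysis genes, 2 were higher and 3 lower, or 31.25% called beside 21.8% of all tested genes. The count of higher genes was 1 in all 6 such fits but that without N1ICD replicate 2, and the count of lower genes was 1 without MYC/Otx2 replicate 3.

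Markers of vessel walls, glia and other cells were looked at next. Such genes can also be expressed in tumour cells, and the part of the tissue's makeup in their differences was not tested. Of 14 pericyte and smooth muscle genes, 10 were higher and 0 lower (median 4.21). Tagln, an actin-binding protein of smooth muscle, was at 30.0, 21.6 and 48.7 CPM against 0, 0 and 0.462 CPM (7.55 ± 1.02 log2, edgeR adjusted p = 0.00169). The pericyte receptor gene Pdgfrb was at 26.6, 200 and 92.5 CPM against 1.98, 6.48 and 10.2 CPM (4.09 ± 0.87 log2, edgeR adjusted p = 0.0115). Tagln, Cnn1 and Pdgfrb kept their calls without each library. The contractile genes Acta2 and Myh11 were split within the N1ICD group. Acta2 was at 24.9, 2584 and 1219 CPM against 11.6, 14.3 and 58.1 CPM, and Myh11 was at 0, 258 and 47.5 CPM against 0 in the MYC/Otx2 libraries, at least 886-fold higher. Replicate 1 was low in both, and both calls were lost without MYC/Otx2 replicate 1 (edgeR adjusted p = 0.0702 and 0.0636). Of the 6 fits that left out 1 library, Acta2 was called in 4 and Myh11 in 2. The list's count was 3 without that library and 5 without MYC/Otx2 replicate 3.

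Endothelial genes gave 3 higher of 15 (median 1.47, and 0.97 without N1ICD replicate 2), or 20% beside 12.0% of all tested genes. Kdr and Egfl7 did not pass, at log2 changes of 0.84 and -0.53 (edgeR adjusted p = 0.23 and 0.231). Pecam1, a junction protein of endothelium, was at 19.7, 48.8 and 32.1 CPM against 7.35, 7.97 and 8.9 CPM (2.05 ± 0.46 log2, edgeR adjusted p = 0.0133), and without MYC/Otx2 replicate 1 the count was 0. Meningeal and fibroblast genes gave 4 higher of 16, with 0 without MYC/Otx2 replicate 1 or 2 and 2 without MYC/Otx2 replicate 3 or N1ICD replicate 2. Microglial genes gave 3 higher and 1 lower of 20 (median -0.08, from -0.43 without MYC/Otx2 replicate 3 to 0.19 without N1ICD replicate 1), and summed to 291 to 679 CPM against 306 to 1102 CPM. The microglial count of higher genes ranged from 0, without N1ICD replicate 2, to 4, without N1ICD replicate 1. Of the oligodendrocyte genes edgeR called 0 of 13, with myelin basic protein, Mbp, at 18.9 to 33.1 CPM against 18.9 to 36.7 CPM. The lymphocyte genes, 9 tested, had 0 called by edgeR and sums of 0 to 5.93 CPM against 1.25 to 6.22 CPM. Cd3e, Cd79a and Cd79b had 0 counts in the 6 libraries. Of these lists 0 oligodendrocyte genes and 1 lymphocyte gene reached an unadjusted p under 0.05, DESeq2 called 0 and 1, and limma-voom called 0 in both.

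Astroglial genes gave 6 higher and 1 lower of 24, with a median of 2.42 that was -0.12 without N1ICD replicate 1. Sparcl1, a secreted glial protein that vessels also make, was at 1342, 1099 and 202 CPM against 36.2, 71 and 23.3 CPM (4.34 ± 0.89 log2, edgeR adjusted p = 0.00965). The metallothionein gene Mt1 was at 695, 326 and 855 CPM against 162, 232 and 83.8 CPM (1.97 ± 0.42 log2, edgeR adjusted p = 0.0113). Those 2 calls held without each library, and the count of higher genes was 2 without N1ICD replicate 1 or MYC/Otx2 replicates 1 or 2 and 3 without MYC/Otx2 replicate 3. Gfap, the filament of astrocytes, did not pass, at 10.3, 16.7 and 33.3 CPM against 12.0, 12.5 and 3.24 CPM.

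The N1ICD libraries differed among themselves along these markers. Ttr, the transthyretin of choroid plexus, was at 4672, 3.14 and 1.22 CPM in the N1ICD libraries against 8.62, 2.24 and 0.462 CPM, so that replicate 1 stood alone. The median of 10 choroid plexus genes, 1 of them called higher, was 3.08 and -1.54 without that library. Sox9, a factor of glia and progenitors, was at 649, 2.09 and 16.6 CPM against 7.2, 13.6 and 7.97 CPM. Slc1a3, an astroglial glutamate transporter, was at 1402, 4.18 and 26.0 CPM against 73.6, 83.8 and 50.7 CPM. These 3 genes were highest in N1ICD replicate 1 and did not pass the test (edgeR adjusted p = 0.0706, 0.0706 and 0.22). Replicate 2 in turn was highest in Rgs5, a pericyte regulator, at 151, 3409 and 822 CPM against 43.8, 83.3 and 51.1 CPM. The interferon list's median of 2.60 was -0.02 without N1ICD replicate 2. Cdkn2a, which encodes p16 and ARF, was at 0.429, 32.4 and 39.0 CPM against 4.94, 5.98 and 6.93 CPM. Replicate 1 was the low library there and replicates 2 and 3 were alike, and Cdkn2a did not pass (edgeR adjusted p = 0.23).

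**Figure D4:**
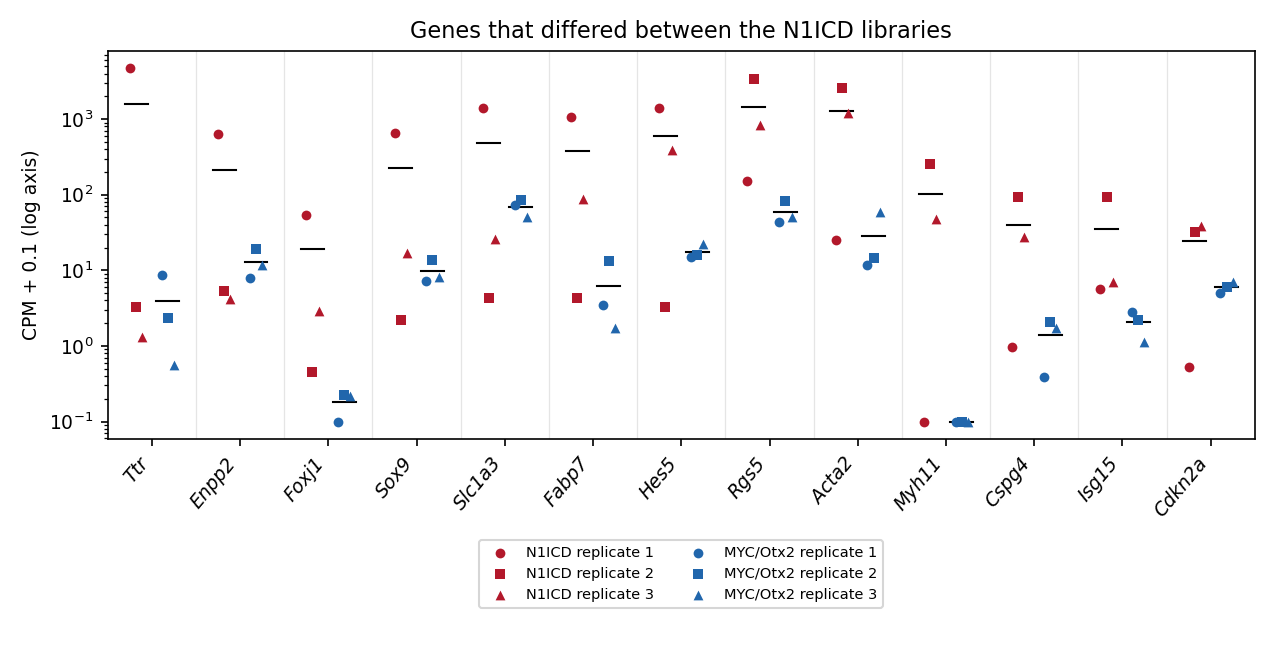
CPM plus 0.1 on a log axis of genes chosen because they differed between the N1ICD libraries (red, N1ICD; blue, MYC/Otx2; symbols, replicates; black lines, means plus 0.1). Circles mark replicate 1, which was highest for Ttr to Hes5 from the left, and squares mark replicate 2, which was highest from Rgs5 to Isg15. Replicate 3 lay between them, except in Ttr and Enpp2, where it was the lowest, and in Cdkn2a, where it was the highest.

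Counted over all tested genes with a mean of at least 10 CPM, 571 of 8341 (6.85%) spanned 10-fold or more (on CPM plus 1) between the N1ICD libraries, and 57 of 7853 (0.726%) between the MYC/Otx2 libraries. Of the 571, 297 were highest in replicate 1, 210 in replicate 2 and 64 in replicate 3. Among genes called higher in the N1ICD tumours the share was 174 of 1404 (12.4%). Part of the wider span can come from counts of few reads at the lower depth of the N1ICD libraries, and that part was not tested.

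Mitochondrially encoded genes gave 8 higher of 9 (median 1.76), the ribosomal RNA gene mt-Rnr2 being 3.45 ± 0.20 log2 higher at 139224, 181517 and 133945 CPM against 13175, 12817 and 15642 CPM (edgeR adjusted p = 6.49e-05). With these genes left out before scaling, 3255 genes were called, in place of 3315. Depth, this share and the library set moved together with the groups, and their part in the differences was not tested, apart from thinning all libraries to the same total, which left 2974 genes called of 12731 tested.

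**Figure D5:**
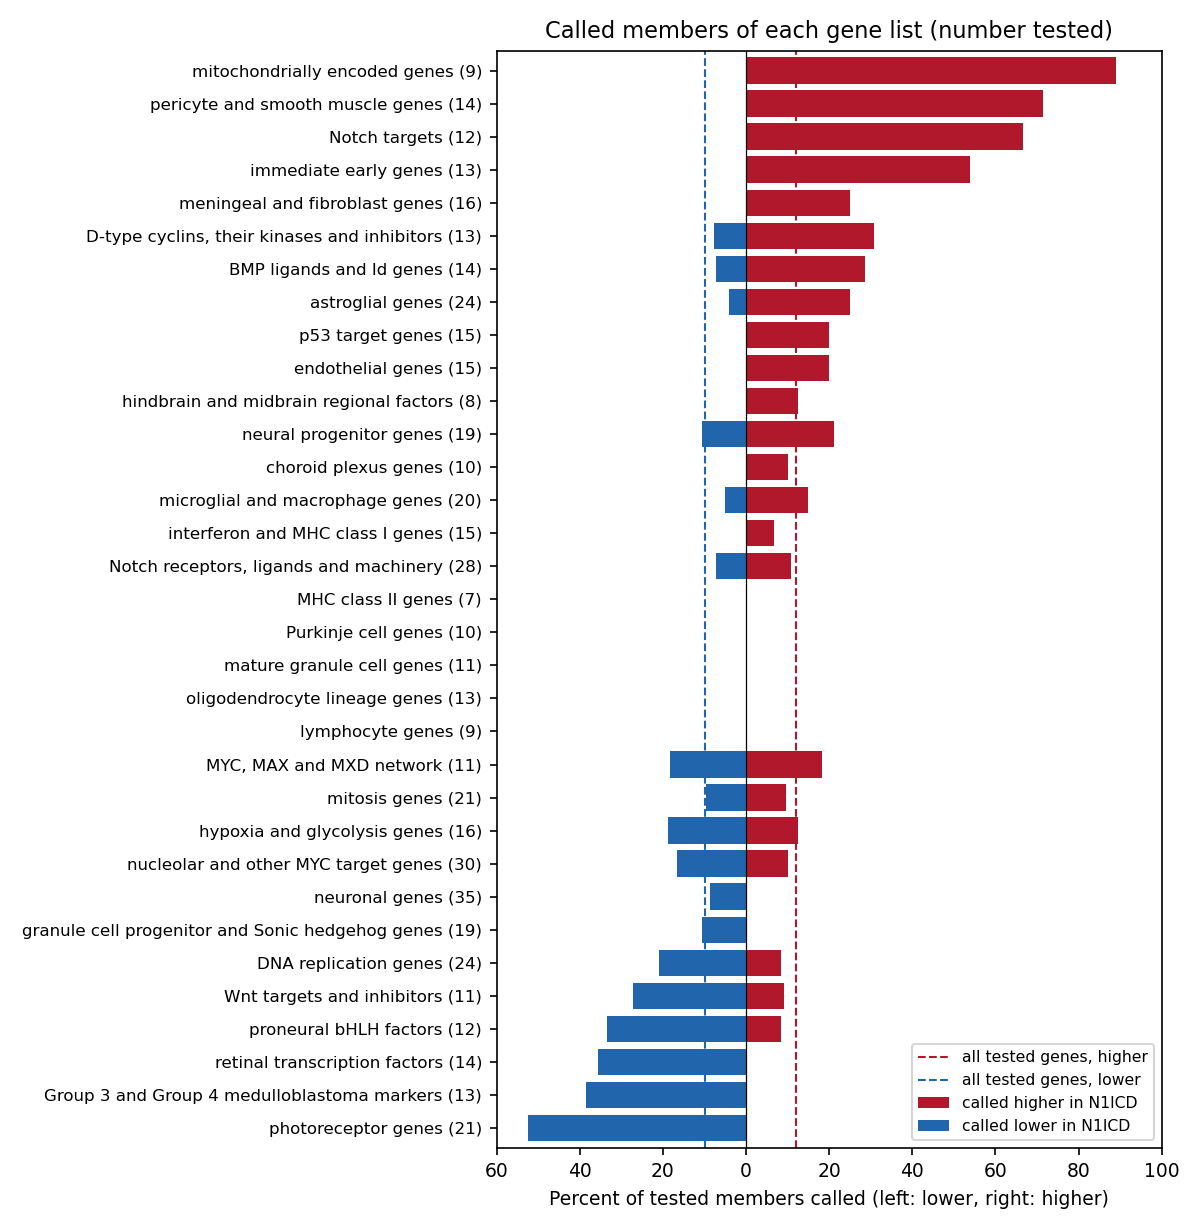
Percent of the tested members of each gene list of at least 5 tested genes that edgeR called higher (red, to the right) or lower (blue, to the left) in the N1ICD than in the MYC/Otx2 tumours, with the number tested in parentheses. Dashed lines mark the shares over all tested genes, 12.0% higher and 9.76% lower. Mitochondrially encoded genes (8 of 9), pericyte and smooth muscle genes (10 of 14) and Notch targets (8 of 12) lie furthest to the right and photoreceptor genes (11 of 21) furthest to the left.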

How the data were processed

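The deposited values are whole-number counts of reads per gene, 1 column per library, for 38406 genes. Per the submitters' processing notes, the authors used STAR 2.4.1d, HTSeq 0.6.1 and the mouse build mm10. Per the labels' protocols, RNA came from frozen tumours and 3′ libraries were made with molecular identifiers. Whether identifiers were collapsed, the strand setting and the annotation release are not stated there, so overlapping and antisense genes and near-identical copies are uncertain.

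Genes were filtered with filterByExpr, scaled by TMM and fitted with edgeR 4.0.16 (quasi-likelihood, robust, two-sided) in R 4.3.3 over all 11 libraries and 4 groups. Benjamini-Hochberg adjustment covered the 15228 genes tested, and a gene was called at an adjusted p of at most 0.05. The fit had 7 residual degrees of freedom and a common biological coefficient of variation of 0.562, and it was tested on simulated data. There it recovered 26% of 4-fold, 58% of 8-fold, 62% of 16-fold and 88% of 64-fold changes. A gene that did not pass may therefore still differ. CPM are counts per 1000000 of the TMM-scaled total. The SE is the absolute log2 change divided by the square root of F. A fold against a group with 0 counts is a lower bound from a floor of 3 counts over that group. The SE and SD include the spread between libraries, whereas the floor covers counting error only.

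The 34 gene lists hold 591 symbols, of which 584 are in the table and 513 were tested. Groups and lists were chosen with earlier results of these data known. Genes were named by rule: those of the labels, the 15 largest rises and falls among called genes without overlap and with at least 10 CPM, up to 5 called genes a direction and 2 not called per list, and the 10 most abundant called genes a direction. Gene positions are from GENCODE M21. Alternatives used limma 3.58.1 (voom), DESeq2 1.42.0, other scalings and filters, thinned libraries, a replicate block and the loss of each library. Some genes of the lists are counted but not reported by name here.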

Additional observations from a re-analysis of the deposited data

How the results depend on the processing

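The total of 3315 called genes stayed within 1.5 times under DESeq2, other scaling factors, other low-count filters, equal depth, the compared groups alone and the removal of mitochondrially encoded genes. Among the counts of higher genes, limma-voom gave 1209 and the replicate block 1150, in place of 1829. Leaving out each of the 6 compared libraries in turn gave 1654 to 2775 genes called, 849 to 1574 higher and 805 to 1201 lower. Leaving out a MYC/Gfi1 replicate gave 4012 or 4067 genes called, of which 2150 or 2181 were higher and 1862 or 1886 lower. Higher genes made up 55.2% of the calls, and 49.3% when the compared groups were fitted alone, 48.5% without a low-count filter and 49.9% without MYC/Otx2 replicate 3. Of the 232 named genes tested, 164 were called and 0 reversed. Of the called genes, 68 kept the call in every setting in which they were tested. In the fits without 1 of the 6 libraries, 77 kept it wherever they were tested. The replicate numbers did not pair the samples: deviations of same-numbered libraries correlated at -0.04, -0.11 and 0.06, and not every library correlated best with its own number. With the replicate block, 2213 genes were called. An N1ICD library counts 1 read as at least 0.349 CPM, so lower levels were not resolved there.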

Other observations

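Imprinted genes, which are expressed from 1 parental allele and include several growth regulators, were looked up after the values were seen. Of 24 tested, 6 were higher and 2 lower (median 0.76). H19, a noncoding RNA of embryonic tissue, was at 4174, 3982 and 21731 CPM in N1ICD replicates 1, 2 and 3 against 39.6, 162 and 13.3 CPM in the MYC/Otx2 replicates (7.12 ± 1.33 log2, edgeR adjusted p = 0.00659). Its neighbour Igf2, an embryonic growth factor, was at 210, 780 and 799 CPM against 4.52, 7.35 and 26.9 CPM (5.52 ± 1.23 log2, edgeR adjusted p = 0.0136), a call lost without MYC/Otx2 replicate 1 or 2 (edgeR adjusted p = 0.0543 and 0.0535). Igf2 is also 1 of the 4 called genes of 16 in the meningeal and fibroblast list, and the part of such cells in its level was not tested. Igf2r, the receptor that clears that factor, was at 70.7, 247 and 114 CPM against 9.75, 11.7 and 19.0 CPM (3.42 ± 0.57 log2, edgeR adjusted p = 0.00399). The factor and its clearance receptor were thus both higher in every N1ICD library. Slc38a4, an amino acid transporter, and Peg10, a retrotransposon-derived gene, were higher by 6.43 ± 1.25 and 3.90 ± 0.75 log2 (edgeR adjusted p = 0.00762 and 0.00713). Plagl1, a zinc finger factor, was lower at 11.6, 60.3 and 15.0 CPM against 226, 256 and 163 CPM (-2.88 ± 0.55 log2, edgeR adjusted p = 0.00698). Grb10, an adaptor that restrains growth factor receptors, was lower too, at 3.86, 43.9 and 14.6 CPM against 509, 272 and 390 CPM, and its highest edgeR adjusted p without 1 library was 0.103.

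Among the most abundant called genes, Malat1, a nuclear noncoding RNA, averaged 5717 ± 3655 CPM in the N1ICD tumours and 220 ± 94.6 CPM in the MYC/Otx2 tumours (SD over 3 libraries each), or 4.70 ± 0.66 log2 higher (edgeR adjusted p = 0.00203). Its call held without each of the 6 compared libraries. Actb, the cytoskeletal actin, was 0.94 ± 0.20 log2 higher. Hint1, a nucleotide hydrolase, was at 934 against 3100 CPM on average, or -1.73 ± 0.24 log2. The calls of Actb and Hint1 held without each of the 6 compared libraries. Of 81 ribosomal protein genes 6 were higher and 8 lower. These genes have many pseudogenes, so their counts are uncertain.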
